A study of Mus musculus with 16 samples.

Results

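The cells described here are conventional CD4 T cells from mouse tumors, that is, T cells with transcripts of Cd4 and none of Foxp3. They were chosen by measured values, namely the counts of unique molecular identifiers (UMIs, each standing for 1 captured transcript) of 9 genes in each cell barcode. A member had at least 2 UMIs of Cd3d, Cd3e and Cd3g together, at least 1 UMI of Cd4, no UMI of Cd8a, Cd8b1 or Foxp3, and at most 1 UMI of the proliferation genes Mki67 and Top2a together. Before the gate, barcodes needed at least 500 detected genes and at most 10% mitochondrial UMIs. A barcode string found in several libraries of the same tumor line was kept only where its UMIs were highest. The 16 libraries held 28678 called barcodes, of which 22305 passed the filter and 16350 were kept, and 369 of these were members. Because these genes drew the gate, their levels are a description of the members and carry no test.

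The study sorted live CD45+ cells from subcutaneous flank tumors of C57BL/6J mice, 6 to 8 weeks old, and sequenced 3′ ends of their transcripts cell by cell on the 10x Genomics platform. The 4 groups were MC38 tumors left untreated (NT), MC38 tumors given a single dose of 12 Gy (RT), Panc02-SIY tumors left untreated, and Panc02-SIY tumors given the same dose, all taken 24 h after treatment. MC38 is a colorectal carcinoma line that the study treats as radioimmunogenic. Panc02-SIY, from a pancreatic adenocarcinoma, carries the model antigen SIY and is treated as poorly radioimmunogenic. Both are transplanted lines, so a group stands for 1 line in 1 mouse strain, and the CD45 sort leaves out the tumor cells themselves. The labels give 4 replicates for each group where the methods give 3 animals, and no source says which animal a library came from, so p-values measure the spread between these libraries.

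CD4 T cells recognize peptides on MHC class II and act on other cells mainly through cytokines and surface ligands such as CD40L. After activation they take on helper programs. Type 1 helper cells use T-bet (Tbx21) and interferon-γ, and type 2 helper cells use GATA3 and the cytokines IL-4, IL-5 and IL-13. Foxp3 marks regulatory T cells, which restrain the other programs. Ionizing radiation breaks DNA and activates the transcription factor p53, whose targets include the cell cycle inhibitor p21 (Cdkn1a), the pro-apoptotic Bax and the p53 inhibitors Mdm2 and Mdm4.

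Most members came from Panc02-SIY tumors. The 4 untreated Panc02-SIY libraries gave 25, 22, 32 and 60 members, and the 4 irradiated ones gave 47, 75, 48 and 41. The untreated MC38 libraries gave 2, 0, 2 and 2 members, and the irradiated ones 1, 2, 5 and 5. The Panc02-SIY tumors therefore held 350 of the 369 members, and statements on MC38 rest on 19 barcodes. The members carried 2344328 UMIs in all, and each Panc02-SIY library summed to between 120318 and 471107 member UMIs. The median member had 5401 UMIs in untreated and 5420 in irradiated Panc02-SIY tumors.

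The marker Cd3e was detected in 346 of the 369 members (93.8%), and Cd4 in every member by construction. Close to the limits of the gate, 12 members had exactly 2 CD3 UMIs, and 24 barcodes that met every other condition had 1. The Cd4 limit mattered more, since 123 members had a single Cd4 UMI while 783 barcodes missed the gate only because they had none. A single CD8 UMI kept 41 barcodes out, a single Foxp3 UMI 28, and 2 UMIs of the proliferation genes 34. Of the CD3 barcodes of Panc02-SIY tumors, 7.90% had a Cd4 UMI without a CD8 UMI, 77.0% a CD8 UMI without a Cd4 UMI, and 12.9% had neither.

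Other cell types left traces in some members. At least 2 UMIs of markers of another lineage were present in 59 of the 350 Panc02-SIY members (26 NT, 33 RT) and in 16 of the 19 MC38 members. The 12 macrophage and monocyte genes summed to 276, 706, 505 and 1714 CPM (counts per 1000000 UMIs) in the untreated Panc02-SIY libraries, and to 720, 1265, 4962 and 3226 in the irradiated ones. The sums overlapped between the groups, with the 2 highest after radiation. Their most abundant gene after radiation was C1qa, with 610 UMIs, and none of the 12 was at 0 in either group. A single irradiated barcode held 262 of the 349 UMIs of Lyz2 in that group (75.1%). Of the 8 genes of the B cell list 6 were at 0 in untreated members and none after radiation, and its most abundant gene, Ighm, had 53 and 211 UMIs. A UMI of an NK or γδ T cell gene was present in 12 of 139 untreated and 20 of 211 irradiated Panc02-SIY members. UMIs of Il2ra, Ikzf2 or Ctla4, genes that regulatory and activated T cells share, were found in 90 of 139 untreated and 181 of 211 irradiated ones. In MC38 tumors they were found in 6 of 6 untreated and 11 of 13 irradiated members. The regulatory T cell list averaged 7056 ± 3964 (SD) and 3926 ± 1008 CPM in untreated and irradiated MC38 libraries. In Panc02-SIY libraries it averaged 2239 ± 814 and 2644 ± 542 CPM. Whether some members were regulatory T cells without a captured Foxp3 UMI was not tested. Of the MC38 members, 8 of 19 (42.1%) shared their barcode string with another MC38 library, against 2 of 350 (0.571%) in Panc02-SIY tumors. The rule on shared strings removed most MC38 barcodes, as 7360 passed the filter and 1596 were kept, against 14945 and 14754 in Panc02-SIY. Of the distinct passing strings, 1005 in MC38 and 63 in Panc02-SIY occurred in several libraries. The MC38 shares therefore depend on this rule, and the cause of the sharing was not tested.

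Conventional CD4 T cells were a small share of the CD45+ barcodes in both tumors. In untreated MC38 tumors they made up 1.21, 0, 0.930 and 0.656% of the kept barcodes, where the count of 0 in the second library allows a share of up to 2.4%. In irradiated MC38 tumors they made up 1.33, 1.65, 2.22 and 1.37%, so that every irradiated library lay above every untreated one. The difference of the means, 1.64% ± 0.41 (SD, n = 4) against 0.70% ± 0.52, had p = 0.0286 in a two-sided exact permutation test, the smallest p that 4 against 4 libraries allow, and 0.0857 after adjustment over 6 share comparisons, below the limit of 0.1 used here. Without any 1 of the 8 libraries the groups still did not overlap, and the unadjusted p was 0.0571 each time, the smallest that 3 against 4 libraries allow, so that the adjusted p of 0.114 to 0.171 says nothing of stability. The difference rested on 6 untreated and 13 irradiated members. It shrank to 0.0979 percentage points when all copies of shared barcode strings were counted (adjusted exact permutation p = 0.446). After thinning to 1000 UMIs it was 0.430 points (adjusted exact permutation p = 0.643). In both settings the groups overlapped and the limit was not passed. Of the CD3 barcodes, members were 15.4, 0, 13.3 and 10.5% without and 9.09, 33.3, 17.2 and 12.2% with radiation, which overlapped (exact permutation p = 0.314).

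In Panc02-SIY tumors the share did not separate by treatment. It was 2.92, 1.32, 2.35 and 1.72% of kept barcodes in untreated and 5.83, 4.14, 2.34 and 1.52% in irradiated libraries. The irradiated libraries thus ran from one of the lowest to the highest values (3.46% ± 1.92 against 2.08% ± 0.71, exact permutation p = 0.286). Of the CD3 barcodes, members were 5.66, 2.24, 4.08 and 3.31% without and 17.2, 8.57, 5.63 and 3.45% with radiation (exact permutation p = 0.143). Beside these shares, barcodes of the CD8 gate (a CD8 UMI, no Cd4 or Foxp3 UMI, the other limits unchanged) were 28.2, 35.1, 34.5 and 28.6% of kept barcodes in untreated and 14.1, 29.9, 23.6 and 26.0% in irradiated libraries. Among the untreated tumors, MC38 had fewer members per kept barcode than Panc02-SIY by 1.38 percentage points (exact permutation p = 0.0286, adjusted 0.0857, but 0.171 with all copies of shared barcode strings and 0.643 at -0.569 points after thinning to 1000 UMIs), while per CD3 barcode the means were 9.81% in MC38 and 3.82% in Panc02-SIY (exact permutation p = 0.143). Shares say nothing of cell numbers, since the total in each tumor was not measured here.

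**Figure D1:**
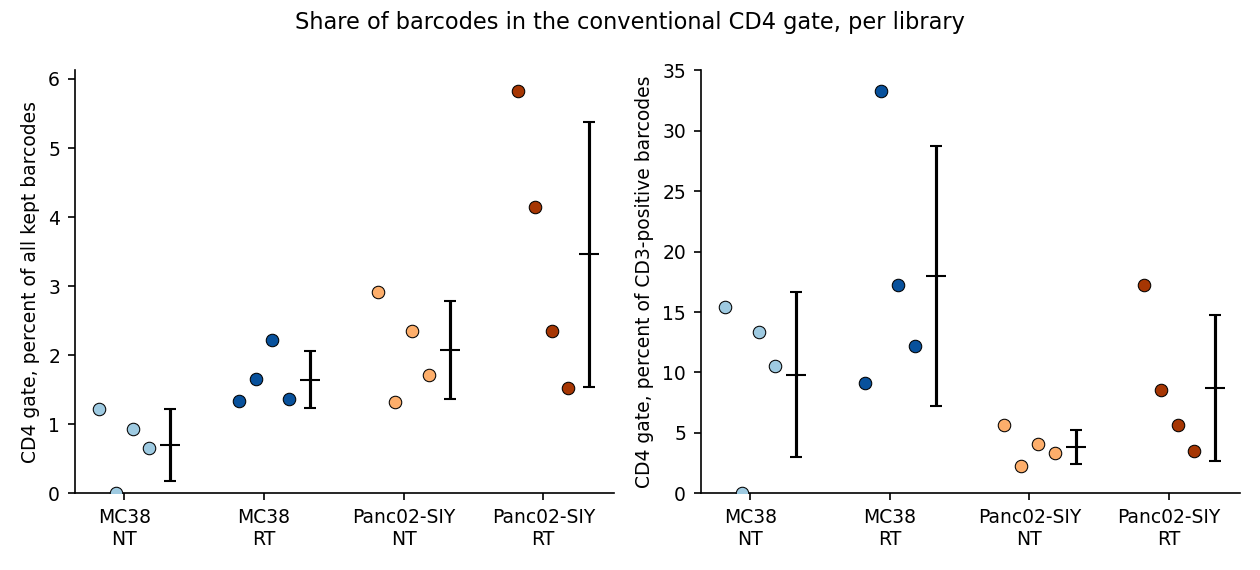
Conventional CD4 T cells as a percent of kept barcodes (left) and of CD3 barcodes (right) in each library. Points are libraries and bars are the mean ± SD of the 4 libraries of a group. The irradiated MC38 libraries lie above the untreated ones on the left, between 1.33 and 2.22%, and the untreated MC38 libraries lie below the untreated Panc02-SIY ones there, while the other comparisons overlap.

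To ask what 12 Gy changed in these cells within 24 h, UMIs were summed over the members of each library and compared with the edgeR quasi-likelihood test. A gene was called when its Benjamini-Hochberg adjusted p was below 0.1 and its fold change above 1.3, the limits of the study's methods. In Panc02-SIY tumors 10 of 8429 genes rose (0.119%) and none fell, and 424 genes had an unadjusted p below 0.05. DESeq2 called 12 genes, and the edgeR count was 4 without untreated replicate 4 and 15 without irradiated replicate 2. It was 75 with a replicate block, 57 without a filter on low counts (55 higher and 2 lower), 6 with a stricter gate and 1 with members carrying Il2ra, Ikzf2 or Ctla4 UMIs left out, where 2658 genes were tested. That last setting removed 90 of 139 untreated and 181 of 211 irradiated members, so a loss of power cannot be told from a changed result. The genes that rose included p53 targets (Phlda3, Ccng1, Rps27l), the p53 inhibitor Mdm4, the immediate early gene Fos, the chemokine Ccl3 and the transcription factor Irf8.

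Promoter sequences are shown for Ccng1 and Rps27l, which rose, and for the p53 target Cdkn1a, which did not pass the test, because windows of these 3 p53 targets held a p53 motif. Of 32851 mouse promoter windows from RefSeq (GRCm38.p6, 250 bases before to 50 after an annotated start), 8.36% held a p53 half-site, the 10-letter motif whose pattern reads the same on both strands. Half-sites were searched in the windows of Phlda3, Ccng1, Rps27l, Mdm4, Cdkn1a, Fos and Exoc4. The window of Ccng1 held 1, 185 bases before its start, and that of Exoc4 held 1, 203 bases before. Rps27l and Cdkn1a have 2 windows each. One window of Rps27l held 2, at 210 and 107 bases before its start, and one of Cdkn1a held 2, at 73 and 51 bases, where 0.359% of all windows held at least 2. The other window of each of these genes and the windows of Phlda3, Mdm4 and Fos held none, which says only that this pattern was not in them. The printed stretch of Rps27l precedes a later annotated start and lies within the gene, which spans chr9:66946086-66949516 in GENCODE vM21. The window at the earlier start of Rps27l (chr9:66945836-66946135) held none. The 250 bases before the start of the window are printed 5′ to 3′ on the strand of the gene, with half-sites in capitals, for Ccng1 (chr11:40755287-40755536, minus strand), Rps27l (chr9:66946163-66946412, plus strand) and Cdkn1a (chr17:29090729-29090978, plus strand).
Ccng1: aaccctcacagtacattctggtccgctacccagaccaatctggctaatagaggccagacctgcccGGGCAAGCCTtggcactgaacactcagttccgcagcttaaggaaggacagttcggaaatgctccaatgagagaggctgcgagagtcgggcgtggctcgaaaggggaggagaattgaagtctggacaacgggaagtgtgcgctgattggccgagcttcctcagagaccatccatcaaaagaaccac
Rps27l: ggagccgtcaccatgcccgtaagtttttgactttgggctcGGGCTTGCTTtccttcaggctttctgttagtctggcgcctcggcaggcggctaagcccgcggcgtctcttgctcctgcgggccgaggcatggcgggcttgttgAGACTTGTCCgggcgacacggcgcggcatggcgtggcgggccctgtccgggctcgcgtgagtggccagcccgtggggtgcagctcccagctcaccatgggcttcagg
Cdkn1a: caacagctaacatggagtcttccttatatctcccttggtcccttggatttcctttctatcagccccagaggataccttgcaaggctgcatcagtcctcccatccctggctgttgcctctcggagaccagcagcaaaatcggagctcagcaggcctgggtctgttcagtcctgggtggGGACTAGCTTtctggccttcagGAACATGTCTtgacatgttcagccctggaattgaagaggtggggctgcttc

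Phlda3, a p53 target that blocks membrane recruitment of AKT, had the largest fold change. Its levels were 0, 8.42, 5.96 and 0 CPM in the untreated and 96.6, 49.1, 30.0 and 57.4 CPM in the irradiated Panc02-SIY libraries, with no overlap (log2 fold change 4.21 ± 0.71 SE, edgeR adjusted p = 0.00206). Ccng1, which encodes cyclin G1, stood at 136, 92.6, 149 and 68.2 CPM without and 275, 336, 267 and 263 CPM with radiation (log2 fold change 1.38 ± 0.26, edgeR adjusted p = 0.00687). Its lowest irradiated library was above its highest untreated one. Rps27l, a ribosomal protein paralog induced by p53, went from 210, 219, 238 and 249 to 490, 479, 492 and 386 CPM (log2 fold change 1.00 ± 0.21, edgeR adjusted p = 0.0433). Mdm4, which binds p53 and restrains it, went from 73.9, 135, 65.6 and 77.1 to 250, 182, 168 and 213 CPM (log2 fold change 1.25 ± 0.28, edgeR adjusted p = 0.0615). For these 4 genes the groups did not overlap. The calls of Phlda3 and Ccng1 were lost without untreated replicate 4, where their adjusted p was 0.101 and 0.189, and those of Mdm4 and Rps27l in 5 and 7 of the 10 fits that left out 1 library.

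Fos, a subunit of the AP-1 transcription factor made within minutes of stimulation, gave the smallest adjusted p. It stood at 233, 463, 316 and 385 CPM in untreated and 1070, 916, 1100 and 972 CPM in irradiated libraries (log2 fold change 1.54 ± 0.22, edgeR adjusted p = 0.00025). Exoc4, a subunit of the exocyst that tethers secretory vesicles, went from 34.1, 75.8, 35.8 and 65.2 to 193, 161, 204 and 181 CPM (log2 fold change 1.79 ± 0.29, edgeR adjusted p = 0.00161). Both were called in every fit that left out 1 library. Of 16 alternative settings, Fos lost the call in 2 and Exoc4 in 1. In the gene annotation (GENCODE vM21, GRCm38) Fos lies on chromosome 12, Exoc4 on chromosome 6, Phlda3 at chr1:135766119-135769136 and Ccng1 at chr11:40748552-40755311.

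The other 4 genes that rose were Ccl3, Irf8, Slc15a3 and Ccdc184. Ccl3, an inflammatory chemokine, went from 11.4, 16.8, 11.9 and 32.6 to 132, 150, 80.9 and 73.9 CPM (log2 fold change 2.40 ± 0.39, edgeR adjusted p = 0.00174). Irf8, a transcription factor best known from myeloid and B cells, went from 62.5, 16.8, 59.6 and 56.3 to 215, 105, 225 and 115 CPM (log2 fold change 1.67 ± 0.34, edgeR adjusted p = 0.0433). Slc15a3, an endosomal peptide transporter, went from 39.8, 8.42, 23.8 and 14.8 to 68.0, 81.8, 129 and 152 CPM (log2 fold change 2.28 ± 0.41, edgeR adjusted p = 0.00506), and Ccdc184 from 5.69, 0, 11.9 and 0 to 14.3, 37.4, 86.9 and 45.1 CPM (log2 fold change 3.41 ± 0.73, edgeR adjusted p = 0.055). None of the 4 overlapped between the groups. With the 59 Panc02-SIY members that carried at least 2 UMIs of another lineage left out, all 4 lost the call, and Fos, Exoc4, Phlda3, Ccng1, Rps27l and Mdm4 kept theirs. The log2 fold change was then 1.22 for Ccl3 (edgeR adjusted p = 0.954), 1.88 for Irf8 (0.940), 1.69 for Slc15a3 (0.166) and 3.69 for Ccdc184 (0.302), so that those of Irf8 and Ccdc184 were no smaller than with all members. Leaving out 1 library ended the call of Ccdc184 in 7, of Irf8 in 6, of Slc15a3 in 1 and of Ccl3 in none of 10 fits.

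**Figure D2:**
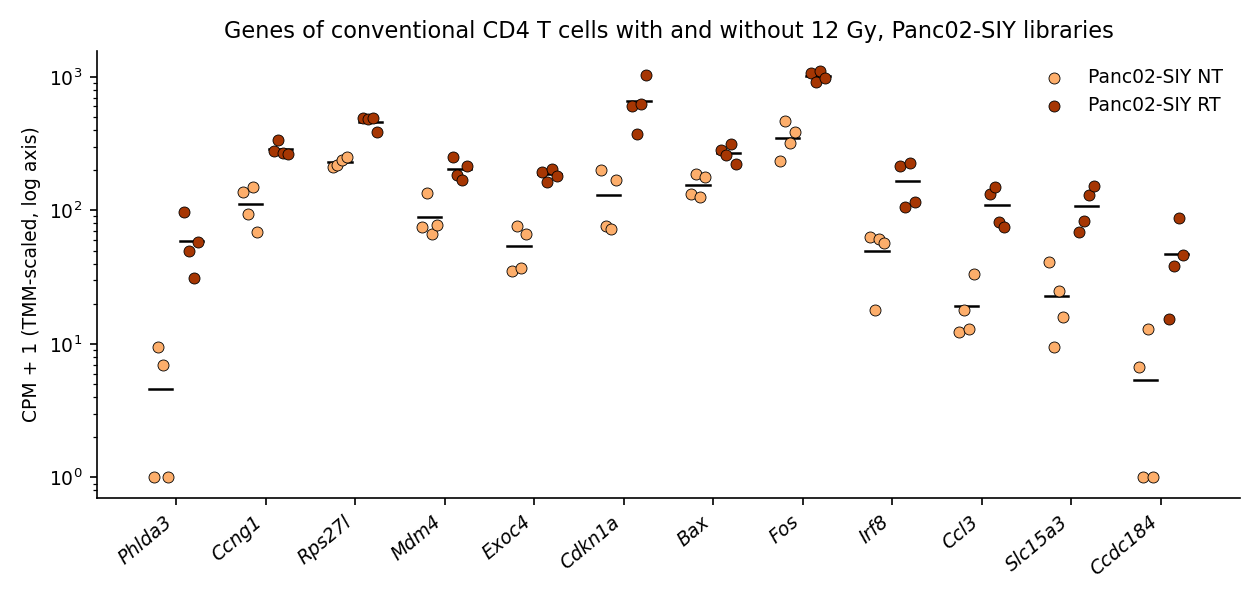
Levels of 12 genes in conventional CD4 T cells of each Panc02-SIY library, as CPM + 1 on a log axis, untreated (NT) and irradiated (RT). Points are libraries and lines are means. For Fos, Exoc4, Phlda3 and Ccng1 all 4 irradiated libraries lie above all 4 untreated ones.

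Cdkn1a and Bax, the best known p53 targets for arrest and for apoptosis, did not pass the test. Cdkn1a stood at 199, 75.8, 71.5 and 169 CPM without and 608, 369, 630 and 1030 CPM with radiation, which did not overlap (log2 fold change 2.29 ± 0.46, edgeR adjusted p = 0.282). It was called in 6 of 16 alternative settings, among them DESeq2 and a stricter gate with at least 2 Cd4 and 3 CD3 UMIs (edgeR adjusted p = 0.027), and when irradiated replicate 2 was left out (0.035). Bax stood at 131, 185, 125 and 178 CPM without and 283, 257, 315 and 222 CPM with radiation (log2 fold change 0.80, edgeR adjusted p = 0.473). Mdm2 had a log2 fold change of 0.52 (edgeR adjusted p = 0.969).

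Of the 32 genes of the p53 list, 27 were tested. 2 were called (Phlda3 and Ccng1, as Rps27l and Mdm4 were not on the list), 22 had a positive fold change, and in 10 every irradiated library lay above every untreated one. The list's median log2 fold change was 0.80, beside 0.05 over all genes tested. Of the 8435 genes in the fit, 4631 were positive. Over all genes, 2.92% had every irradiated library above every untreated one.

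**Figure D3:**
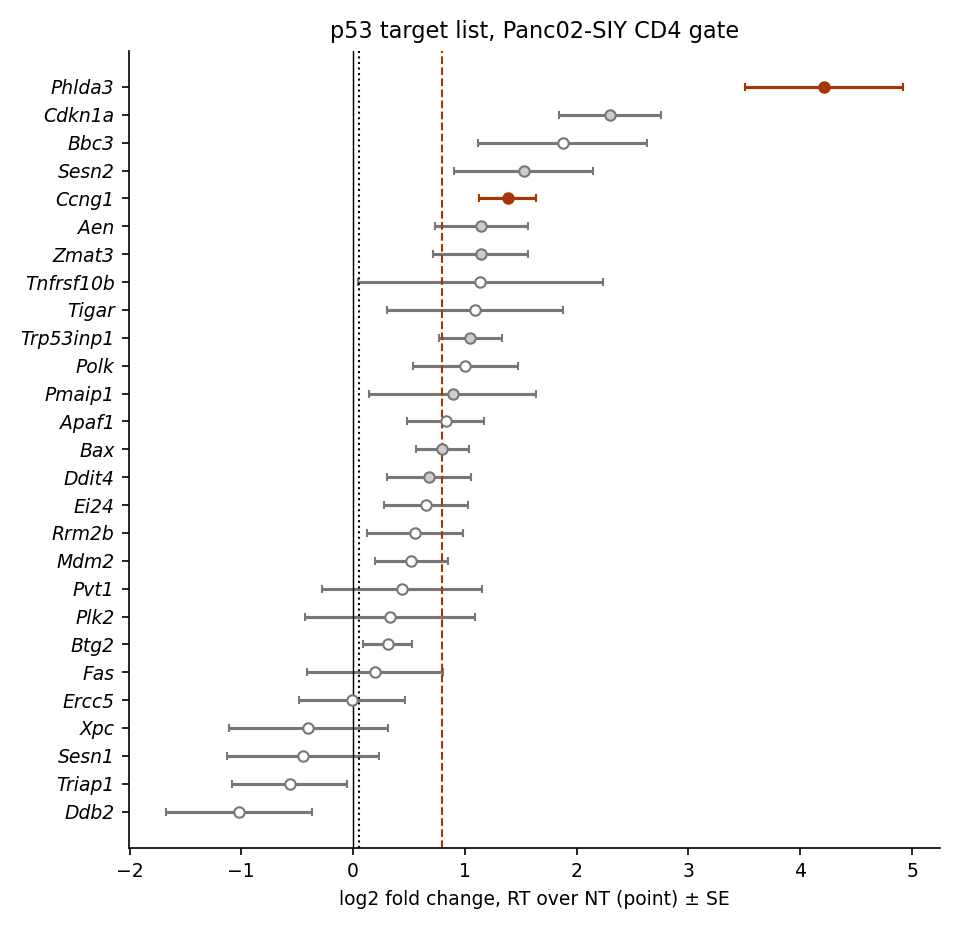
Log2 fold change (RT over NT, ± SE) of the 27 tested genes of the p53 list in conventional CD4 T cells of Panc02-SIY tumors. Red points were called, grey points were not called but had groups that did not overlap, and white points overlapped. The dashed line is the list median, 0.80, and the dotted line the median of all genes tested, 0.05.

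Detection of 3 p53 targets was also compared as a share of barcodes, among them Cdkn1a, whose level was not called. Phlda3 was detected in 2 of 139 untreated members (1.44%) and 43 of 211 irradiated ones (20.4%). By library the share was 0, 4.55, 3.13 and 0% without and 29.8, 16, 14.6 and 24.4% with radiation. Cdkn1a was detected in 36, 13.6, 9.38 and 23.3% of untreated and 61.7, 52.0, 75.0 and 68.3% of irradiated members by library, and Ccng1 in 40, 36.4, 37.5 and 30.0% and in 61.7, 66.7, 68.8 and 61.0%. For all 3 genes the irradiated libraries were the higher ones, with no overlap. With every barcode thinned to 1500 UMIs, which left out 1 shallower irradiated member, Cdkn1a was detected in 8.63% of untreated and 40% of irradiated members, Ccng1 in 14.4 and 27.1%, and Phlda3 in 1.44 and 5.24%. Of the 45 members with a Phlda3 UMI, 84.4% also had a Cdkn1a UMI, against 40.3% of the others.

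The same genes were more often detected after radiation in the other gates of the same tumors. Phlda3 went from 0.609 to 17.4% of CD8 gate barcodes, from 1.96 to 26.7% of barcodes of the Foxp3 gate (the CD4 gate with at least 1 Foxp3 UMI) and from 3.28 to 13.7% of myeloid gate barcodes (at least 2 UMIs of Csf1r and no CD3 UMI). Ccng1 went from 38.9 to 74.4%, from 39.2 to 73.3% and from 44.3 to 60.0% in these gates, and Cdkn1a from 6.74 to 36.5%, from 19.6 to 51.7% and from 39.6 to 87.9%. These shares describe pooled barcodes and were not tested. Depth differed between the gates, with a median of 5408.5 UMIs in Panc02-SIY members, 7048 in the CD8, 4862 in the Foxp3 and 11775 in the myeloid gate.

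A test of the difference itself asked which genes responded to radiation otherwise in CD4 than in CD8 gate barcodes of Panc02-SIY tumors. Of 9942 genes 2 were called (0.0201%), Fosb and Cd81. The count was not stable, at 12 after thinning and 1 to 91 without 1 library. It was 91 without irradiated MC38 replicate 3 and 37 without irradiated Panc02-SIY replicate 2. Fosb, another AP-1 subunit, stood at 197, 216, 283 and 204 CPM in untreated and 613, 512, 293 and 476 CPM in irradiated CD4 members, and at 160, 110, 139 and 110 and then 141, 114, 97.2 and 97.2 CPM in the CD8 gate. The irradiated libraries lay above the untreated ones in the CD4 gate and overlapped with them in the CD8 gate (log2 difference of the effects 1.32 ± 0.24, edgeR adjusted p = 0.0149). Within the CD4 members Fosb was itself not called (log2 fold change 1.10 ± 0.33, edgeR adjusted p = 0.739). Cd81, a tetraspanin, had a log2 difference of 2.51 ± 0.49 (edgeR adjusted p = 0.0294), but it lost the call in 4 of 10 fits without 1 library. In irradiated members Cd81 was at 13.9, 31.8, 209 and 85.8 CPM, and its 2 highest libraries were those with the highest macrophage gene sums, whose part in this result was not tested. The difference was not called for Fos (1.47, edgeR adjusted p = 0.653), Phlda3 (-1.06, 0.998), Cdkn1a (-1.22, 0.998) or Ccng1 (-0.81, 0.656), which does not show that the effects were alike.

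Other programs did not pass the test beyond single genes. Beside the lists that follow stand all genes, with 10 of 8429 called (0.119%) and a median log2 fold change of 0.05. Of the 8435 genes in the fit, 4631 were positive. Of 23 immediate early and T cell activation genes tested, 1 was called (Fos), 16 were positive, and the median log2 fold change was 0.32. Of 63 interferon-stimulated genes tested, none was called, 49 were positive and the median was 0.27, with Isg15 at 0.64. Of 26 type 1 helper and cytotoxic genes, 1 was called (Ccl3), 14 were positive and the median was 0.01. None of 8 type 2 helper genes was called (6 positive, median 0.20), and none of 17 naive and central memory genes (9 positive, median 0.00). T cell receptor signaling genes were mostly on the lower side, with 2 of 18 positive, none called and a median of -0.16. In the chemokine receptor and homing list 8 of 21 were positive, none was called and the median was -0.25, with Cxcr3 at -1.04 and S1pr1 at -0.75. None of 13 BCL2 family genes (median 0.15), 19 cytokine receptors (0.05), 19 glycolysis and hypoxia genes (-0.01), 13 genes of S phase and mitosis (-0.15), 12 costimulatory or 10 inhibitory receptors was called. Among the markers of other cells, 11 of 12 macrophage and monocyte genes were positive with a median of 1.78, and 3 of 3 dendritic cell genes with a median of 1.91, none called.

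Helper regulators did not move with radiation beyond their spread. Gata3 averaged 454.6 ± 195 CPM in untreated and 456.9 ± 143 CPM in irradiated Panc02-SIY libraries (SD, n = 4, log2 fold change 0.03, edgeR adjusted p = 1.00). Tbx21 averaged 50.2 ± 37.5 and 52.3 ± 11.6 CPM (log2 fold change -0.13). Ifng was at 39.8, 50.5, 29.8 and 575 CPM without and 236, 449, 285 and 82.1 CPM with radiation (log2 fold change 0.45), with untreated replicate 4 as the highest library of all.

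In MC38 tumors the planned comparison needed 5 members per library, which no untreated library reached, so the fit took every library with at least 1 member. Of 6919 genes 7 rose (0.101%), none fell, and 430 had an unadjusted p below 0.05. DESeq2 called 8 genes that rose and 5 that fell. The 7 genes called by edgeR were Klf6, Cdkn1a, Jund, Bax, Fosb, Nkg7 and Btg1. Cdkn1a had 0, 11 and 2 UMIs in the 3 untreated libraries with members and 14, 23, 18 and 68 in the irradiated ones (170 ± 194 against 1115 ± 415 CPM, log2 fold change 2.57, edgeR adjusted p = 0.0508). Bax had 1, 3 and 1 UMIs without and 4, 10, 21 and 18 with radiation (log2 fold change 2.69, edgeR adjusted p = 0.0508). Klf6, a transcription factor of early responses, had 8, 4 and 5 UMIs without and 6, 66, 54 and 45 with radiation (log2 fold change 2.61, edgeR adjusted p = 0.00278). In CPM the groups of these 3 genes did not overlap, while those of Fosb and Nkg7 did. The p53 list had 23 genes tested, 2 called, 18 positive and a median log2 fold change of 1.52, beside 0.26 over all genes. These calls were not stable, and their number ran from 2 (without untreated replicate 4 or irradiated replicate 3) to 13 when 1 library was left out. With only the MC38 libraries in the fit none of 1146 genes was called by edgeR (33 at an unadjusted p below 0.05), at log2 fold changes of 2.51 for Klf6, 2.65 for Cdkn1a and 2.58 for Bax. At least 2 UMIs of another lineage were found in 5 of the 6 untreated and 11 of the 13 irradiated members, so that a fit without them compares 1 barcode with 2 and says nothing of these calls. The macrophage list summed to 641, 20590 and 2278 CPM in the untreated and 639, 1455, 1068 and 35128 CPM in the irradiated MC38 libraries, and 1 irradiated barcode held 96.9% of the 835 Apoe UMIs of its group.

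No gene was called as responding differently in the 2 tumor lines (0 of 6919, or 0.0%, by the edgeR interaction test, 419 at an unadjusted p below 0.05, and 1 by DESeq2), a comparison limited by 6 untreated MC38 members. The edgeR count was 3 with a replicate block and 11 without irradiated MC38 replicate 4 (5 higher, 6 lower). Between untreated MC38 and untreated Panc02-SIY members 237 of 6919 genes were called (3.43%), 22 higher and 215 lower in MC38. The direction depended on the scaling, with 20 higher and 8 lower under RLE, 29 and 13 with library size alone, and 84 and 29 by DESeq2. The median log2 fold change of all genes was -0.67 with TMM and -0.03 with RLE. Line, depth and handling cannot be told apart in it.

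Compared with the Foxp3 gate, the CD4 members of the 8 Panc02-SIY libraries expressed several helper cytokine genes at higher levels, and most inhibitory receptor and regulatory T cell genes at lower levels. The gates were drawn on the same barcodes, so gate genes were left out, and the calls describe how these gates differ. Each library gave 1 sum per gate, and library was a block in the edgeR fit. Of 7136 genes, 559 were higher (7.83%) and 370 lower (5.18%) in the CD4 gate. With barcodes thinned to 1500 UMIs 319 were higher and 120 lower, and with RLE scaling 495 and 437. The Foxp3 gate had 111 Panc02-SIY barcodes with 385 Foxp3 UMIs. By library these were 25, 11, 10 and 5 barcodes in untreated and 13, 16, 25 and 6 in irradiated tumors. A level of 0 in 1 library of that gate therefore rests on few barcodes.

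Tnfsf8 (CD30 ligand) ranged from 193 to 1065 CPM over the CD4 libraries, with a median of 365, and from 0 to 60.6 in the Foxp3 gate, with a median of 0 (log2 fold change 5.88 ± 0.33, edgeR adjusted p = 3.84e-66, higher in 8 of 8 libraries). Cd40lg, through which helper cells activate dendritic cells and B cells, ranged from 93.7 to 248 CPM (median 193) against 0 to 27.3 (median 0; log2 fold change 4.65 ± 0.41). Neither range overlapped with that of the other gate. Several cytokine genes had no UMI at all in the Foxp3 gate, so that their ratio is a lower bound set by 3 UMIs over that gate. Csf2 (GM-CSF) had 850 UMIs in CD4 members and was at least 84.8-fold higher. Ccl1, a ligand of CCR8, had 1109 UMIs and was at least 111-fold higher. Il13 had 574 and Il4 321 UMIs, at least 57.2-fold and 32.0-fold higher. Irradiated replicate 4 held 548 of the Ccl1, 268 of the Il13 and 204 of the Il4 UMIs, and without it the bounds were 58.6-fold for Ccl1, 32.0-fold for Il13 and 12.2-fold for Il4. Ifitm1, a membrane protein that restricts viral entry, ranged from 437 to 5258 CPM in the CD4 and from 0 to 242 CPM in the Foxp3 gate. Ccl1 and Ifitm1 did not set CD4 members apart from the CD8 gate by range. There Ifitm1 ranged from 600 to 2842 CPM, and Ccl1 from 10.6 to 260 CPM, against 17.3 to 2138 CPM of Ccl1 in the CD4 gate.

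On the lower side stood genes known from regulatory T cells. Ikzf2 (Helios) ranged from 120 to 938 CPM in CD4 members and from 1920 to 3630 CPM in the Foxp3 gate. Il10 ranged from 0 to 215 CPM, with a median of 66.7, against 263 to 1350 CPM, with a median of 1006 (log2 fold change -3.48 ± 0.59, edgeR adjusted p = 0.00323). Klrg1 averaged 11.9 ± 8.31 against 254 ± 91.9 CPM (SD, n = 8), and Itgb8, the integrin subunit that activates TGF-β, 14.0 ± 9.63 against 151 ± 74.1 CPM. For Ikzf2, Il10 and Klrg1 no CD4 library reached the lowest library of the Foxp3 gate. Of the 11 regulatory T cell markers tested 8 were lower in CD4 members, and 1, Nrp1, was higher (125 ± 47.9 against 37.4 ± 30.0 CPM).

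The lists divided between the gates. Of 7 type 2 helper genes 3 were higher and 2 lower in the CD4 gate, with a median log2 fold change of 0.23. Of 17 naive and central memory genes 1 was lower and 11 were higher in the CD4 gate, among them Tcf7 (204 ± 85.4 against 16 ± 27.4 CPM), Bcl2 (545 ± 141 against 36.1 ± 55.6 CPM) and Ccr7 (93.1 ± 64.8 against 11.7 ± 16.4 CPM). Of 26 type 1 helper and cytotoxic genes 15 were higher and 2 lower, with Ifng at 226 ± 212 against 18.3 ± 13.4 CPM and Gzmb at 331 ± 122 against 1589.9 ± 407 CPM. Of 10 inhibitory receptors 6 were lower, among them Ctla4 (428 ± 191 against 1517 ± 521 CPM) and Lag3 (142 ± 87.1 against 639 ± 353 CPM), and 1 was higher, Pdcd1 (60.3 ± 31.4 against 23.1 ± 18.5 CPM). Costimulatory receptors had 3 higher and 7 lower of 12, with Tnfrsf4 (OX40) at 462 ± 85.8 against 1647 ± 563 CPM, immediate early genes 10 higher and 1 lower of 23, and interferon-stimulated genes 8 higher and 12 lower. Among 11 macrophage and monocyte genes 4 were higher in CD4 members and 1 lower, and their part in the other differences was not tested.

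Compared with the CD8 gate, CD4 members had higher levels of type 2 cytokines, CD40L and GM-CSF and lower levels of most type 1 and cytotoxic genes. The comparison used 10 libraries (8 Panc02-SIY and 2 irradiated MC38), with library as a block. Of 9942 genes, 685 were higher (6.89%) and 656 lower (6.6%) in the CD4 gate. The balance depended on the setting, with 321 higher and 510 lower after thinning to 1500 UMIs, and 758 and 531 with RLE scaling. Of 8 type 2 helper genes 7 were higher, Gata3, Il4, Il5, Il13, Il1rl1 (the IL-33 receptor), Ccr4 and Areg, and only Il10 was not called (log2 fold change 0.94, edgeR adjusted p = 0.417). Over the 8 Panc02-SIY libraries Gata3 ranged from 204 to 673 CPM in the CD4 and from 68.0 to 157 CPM in the CD8 gate, Il13 from 8.31 to 1045 and from 0 to 4.56 CPM, and Il4 from 10.7 to 796 and from 0 to 2.08 CPM. These ranges did not overlap. Over the 10 libraries the log2 fold changes were 1.87 ± 0.20 for Gata3, 7.10 ± 0.88 for Il13 and 7.35 ± 0.46 for Il4, with edgeR adjusted p of 9.08e-06, 0.000817 and 3.83e-10.

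Other genes far on the CD4 side were Lgals7 (galectin-7; 244 ± 248 against 1.76 ± 1.57 CPM, SD, n = 10), the cytokine Lif (92.6 ± 64.2 against 3.17 ± 2.75 CPM), Cd40lg (186 ± 79.8 against 8.85 ± 5.78 CPM), Csf2 (419 ± 242 against 16.9 ± 13.3 CPM), the leukotriene receptor Cysltr1 (63.8 ± 49.9 against 2.74 ± 2.74 CPM) and Trat1, a partner of the T cell receptor (52.5 ± 58.4 against 2.22 ± 1.69 CPM). In the type 17 list 3 of 5 genes were higher, with Maf at 803 ± 360 against 135 ± 94.6 CPM and Rora at 248 ± 95.4 against 53.7 ± 22.3 CPM. Costimulatory receptors had 7 higher and 2 lower of 12, with Tnfrsf4 at 406 ± 82.4 against 75.8 ± 37.7 CPM. In the naive list 6 of 18 were higher and 3 lower, with Tcf7 at 155 ± 98.4 against 50.4 ± 19.7 CPM. Among immediate early genes 12 of 23 were higher and 1 lower.

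The type 1 helper and cytotoxic list fell on the CD8 side. Of 29 genes 17 were lower in CD4 members and 3 higher (Csf2, Klrg1 and Tnf). Gzma ranged from 7.80 to 271 CPM in the CD4 and from 548 to 3004 CPM in the CD8 gate, and Nkg7, a granule protein, from 391 to 690 and from 2388 to 3335 CPM. Both ranges stayed apart. Gzmb averaged 269 ± 138 against 1403 ± 584 CPM (SD, n = 10), Ccl5 550 ± 560 against 5497 ± 2021 CPM, and Ifng 246 ± 196 against 699 ± 330 CPM. The inhibitory receptor and NK receptor genes Cd160 and Klre1 were also lower, at 5.01 ± 6.85 against 82.1 ± 38.8 CPM and 13.8 ± 13.9 against 292 ± 93.2 CPM. Bend4 had no UMI in CD4 members and 1829 in the CD8 gate, and was at least 42.4-fold lower in the CD4 gate. The p53 list had 5 higher and 2 lower of 29, and the interferon list 15 higher and 4 lower of 64.

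**Figure D4:**
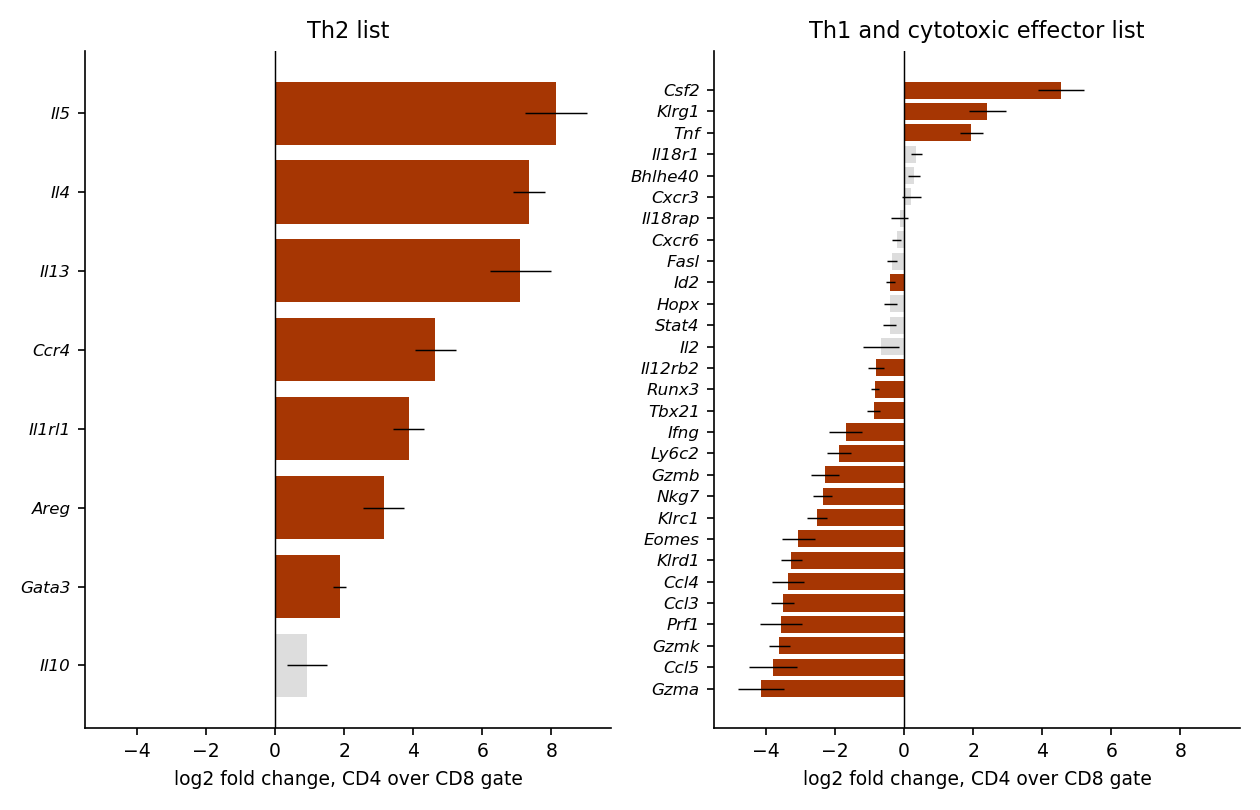
Log2 fold change (CD4 over CD8 gate, ± SE, 10 libraries) of the genes of the type 2 helper list and of the type 1 helper and cytotoxic list. Red bars were called and grey bars were not. Of the type 2 list 7 of 8 genes lie on the CD4 side as called genes, and of the other list 17 of 29 on the CD8 side.

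The type 2 cytokines came from a minority of the members. Il4, Il5 and Il13 lie close together on chromosome 11, with Rad50 between Il13 and Il5, on 122 kb (GENCODE vM21, GRCm38; Il4 at chr11:53602982-53618669 and Il13 at chr11:53631324-53634702, both on the minus strand, and Il5 at chr11:53720794-53725106 on the plus strand). Csf2 follows at chr11:54247271-54249667. Of the 350 Panc02-SIY members, 60 (17.1%) had a UMI of Il4, Il5 or Il13, 93 had a UMI of Ifng, 19 had both and 216 neither. By library they were 9, 2, 3 and 2 members in untreated tumors (36, 9.09, 9.38 and 3.33%) and 13, 18, 7 and 6 in irradiated ones (27.7, 24.0, 14.6 and 14.6%), so that the highest share was that of an untreated library and the groups overlapped. All 60 had a UMI of a T cell receptor constant gene, as had 288 of the other 290 members. Their lowest CD3 count was 5 UMIs and their median was 16, against a median of 10 in the others. In the myeloid gate, which should lack the cytokine, Il4 was detected in 1 of 1593 barcodes (0.0628%) and Il13 in 3 (0.188%). In the Foxp3 gate, at a median of 4862 UMIs, neither was detected in 111 barcodes, which allows up to 2.70% of barcodes with a UMI (counting error only) and sets no limit on cells that express them.

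Il13 and Il4 tended to be found in the same barcodes. Of the 43 members with an Il13 UMI, 46.5% had an Il4 UMI and 55.8% a Csf2 UMI, against 4.89 and 15% of the other members. Gata3 was detected in 81.4 against 64.8% of them, Ifng in 32.6 against 25.7% and Tbx21 in 16.3 against 23.5%. The median member with an Il13 UMI had 7149 UMIs in all, against 5160 in the others, and the part of depth in these differences was not tested. Of the 30 members with a Ccl1 UMI, 23 (76.7%) had a Csf2 UMI. Gata3 was more widely detected than Tbx21 or Bcl6, with a UMI in 234 of 350 members (66.9%). Tbx21 was detected in 79 (22.6%), 56 of them with Gata3 as well, Bcl6 in 13 and Il17a in none, which allows up to 0.857% of barcodes with a UMI and sets no limit on cells that express it. In the Foxp3 and CD8 gates Gata3 was detected in 64.9 and 45.9% of barcodes, and in the myeloid gate in 1.32%.

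The share of members with a type 2 cytokine UMI overlapped between treatments by library, as given above. Pooled over libraries, Il4 was detected in 5.76% of untreated and 12.8% of irradiated Panc02-SIY members, and with barcodes thinned to 1500 UMIs in 2.88 and 4.29%. Il4 had 4, 2, 3 and 4 UMIs in the untreated and 33, 39, 32 and 204 UMIs in the irradiated libraries. The libraries did not overlap, yet 203 of the 308 irradiated UMIs (65.9%) lay in a single barcode, and the gene was not called (17.3 ± 4.47 against 286 ± 368 CPM, log2 fold change 4.03, edgeR adjusted p = 0.855). Il13 had 8, 1, 101 and 10 UMIs without and 46, 56, 84 and 268 with radiation, and 1 barcode held 80.8% of the untreated and 1 barcode 48.2% of the irradiated UMIs. Csf2 was detected in 36, 4.55, 9.38 and 10.0% of untreated and 31.9, 26.7, 25 and 9.76% of irradiated members by library, and Ifng in 24.0, 13.6, 12.5 and 48.3% and in 23.4, 25.3, 31.3 and 14.6%. Both overlapped between the treatments, with an untreated library as the highest, and untreated replicate 4 held 29 of the 42 untreated members with an Ifng UMI.

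**Figure D5:**
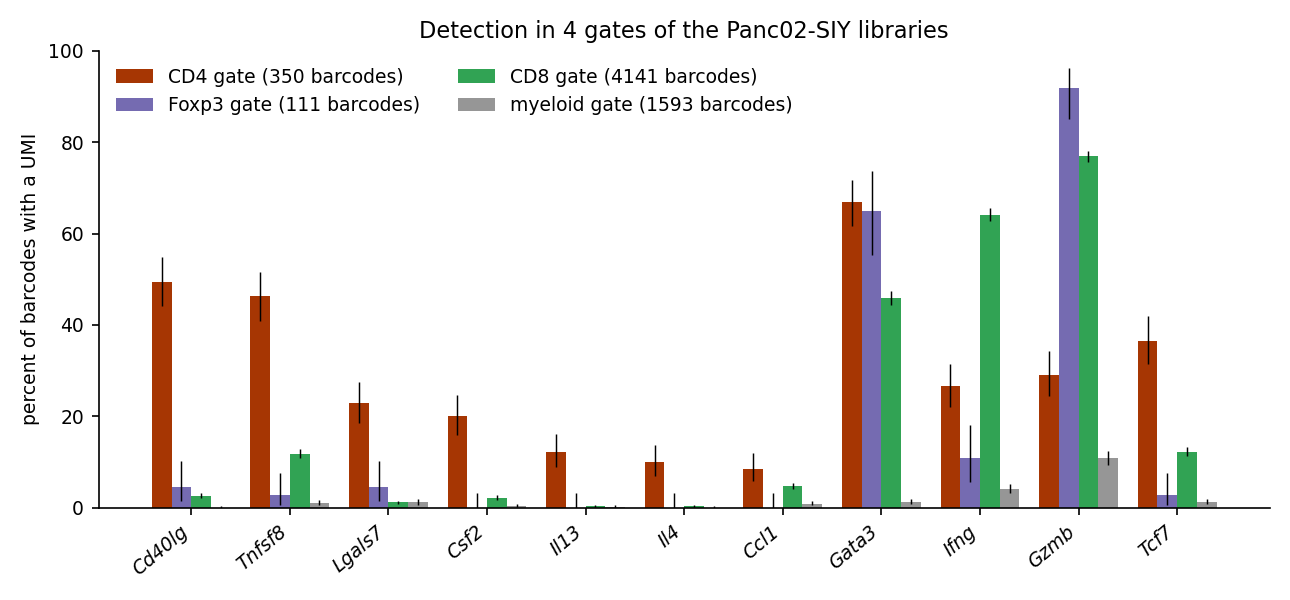
Percent of barcodes with at least 1 UMI of 11 genes in the CD4, Foxp3, CD8 and myeloid gates of Panc02-SIY tumors, pooled over libraries, with exact 95% intervals that cover counting error only. Il4, Il13, Csf2 and Cd40lg are detected mainly in the CD4 gate (10.0, 12.3, 20 and 49.4% of members).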

How the data were processed

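Live CD45+ cells sorted from tumor suspensions were made into 16 libraries with 10x 3′ (v3.0) chemistry. The authors deposited 1 matrix of raw UMI counts per library (barcodes by 31053 features), made with Cell Ranger 3.1.0 and bcl2fastq 2.20.0 on mm10 according to the submitters' processing notes. A matrix that aggregates the libraries was not used. The gate was applied to these counts. No doublet caller was run, and barcodes with at least 2 UMIs of another lineage were left out in an alternative instead. UMIs were summed per library and gate and tested with edgeR 4.0.16 (R 4.3.3; filterByExpr at min.count 3 and min.total.count 15, TMM, robust quasi-likelihood F test, libraries of at least 5 barcodes, 1 coefficient per group). CPM are TMM-scaled for fitted values and unscaled, over the summed UMIs, for ranges, list sums and the cytokines by barcode. A gene counted as called where its p, adjusted by the Benjamini-Hochberg method over all genes tested, was below 0.1 and the fold change exceeded 1.3. The 9 gate genes count in library sizes, not in calls. The planned MC38 comparisons with at least 5 barcodes could not be fitted, and libraries with at least 1 were used. Shares were compared by two-sided exact permutation of libraries (scipy 1.17.1), with the same limit of 0.1 on the adjusted p.

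The members and gene lists were chosen with earlier results of these data known. Genes named are the 10 largest rises and falls whose groups do not overlap, called list genes (at most 12 by mean CPM), a fixed set of T cell genes, and the 8 furthest in each direction between gates at 50 CPM or more. Ccl1 in other gates, Fosb and Cd81 by library, Bend4 and the cytokines within members were looked at after values were seen. Some genes are not reported here. On simulated data for the Panc02-SIY comparison (8319 genes) 12.4% of 97 2-fold and 72.0% of 93 4-fold changes were recovered, with 5 false calls, and for the comparison with the CD8 gate (9483 genes) 60% of 95 and 97.9% of 97, with 19. Sequencing depth per library is given as summed UMIs, and intervals cover counting error only. Replicate libraries of a group differed by more than sampling noise (chi-square per degree of freedom 2.1 to 5.3). Alternatives were DESeq2 1.42.0, other scalings and filters, a stricter gate, other treatments of shared barcodes, thinning, a replicate block and leaving out each library.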

Additional observations from a re-analysis of the deposited data

Results flagged for a closer look

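In 10 of 98 groups of 4 libraries tested, 1 library stood apart by Dixon's criterion, where chance alone gives about 1 in 20. Among untreated Panc02-SIY members, Irf8 was at 16.8 CPM in 1 library while the others lay between 56.3 and 62.5, Mdm4 at 135 CPM (others 65.6 to 77.1), Isg15 at 234 CPM (58.9 to 71.5), Ifng at 575 CPM (29.8 to 50.5) and Cxcr6 at 1148 CPM (370 to 447). Il13 was at 607 CPM of member UMIs in 1 untreated library (others 8.31 to 45.1). Among irradiated Panc02-SIY members, Rps27l was at 386 CPM in 1 library (others 479 to 492), Il4 at 796 CPM of member UMIs (82.8 to 114), Il13 at 1045 (119 to 254) and Csf2 at 215 (542 to 601).

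The effect of radiation differed between the CD4 and the CD8 gate of Panc02-SIY tumors for Fosb, by 1.32 on the log2 scale, and for Cd81, by 2.51, in the edgeR test of the difference itself. The Fosb call held in all 10 fits that left out 1 library. Cd81 was not called with the default expression filter (edgeR adjusted p = 0.184) or after thinning (1.00).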

How the results depend on the processing

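In Panc02-SIY tumors 10 genes rose with radiation. The count of calls was 57 without a filter on low counts (55 higher, 2 lower), 75 with a replicate block and 6 with the stricter gate. It was 1 with members carrying Il2ra, Ikzf2 or Ctla4 UMIs left out, which removed 271 of 350 members (2658 genes tested). The count ran from 4 (without untreated replicate 4) to 15 (without irradiated replicate 2) when 1 library was left out. Whether the replicate numbers pair the libraries is not known. The deviations of same-numbered Panc02-SIY libraries correlated at 0.031, 0.060, -0.066 and 0.211, and those of the other pairs at -0.203 to 0.159. Such weak correlations between noisy sums cannot decide it. For the genes named, 235 values in other settings stayed as in the main fit, 61 lost a call and 7 gained one, and none reversed. The 235 include values of Bax and Cdkn1a, which were not called in the main fit and stayed uncalled there. In MC38 tumors the 7 genes became 4 with RLE scaling, library size alone or the default filter, 13 with DESeq2 (8 higher, 5 lower), 12 without a filter, 1 at an adjusted p below 0.05, 14 with a replicate block, 2 after thinning, and 0 with only the MC38 groups or without members carrying UMIs of another lineage, and ran from 2 to 13 without 1 library. The difference between the lines in response was called for 1 gene by DESeq2 and without a filter, for 3 with a replicate block, for 5 with the stricter gate, and for 0 to 11 without 1 library. The stricter gate, and leaving out members with UMIs of another lineage, left 1 untreated MC38 barcode, so counts in these settings rest on an arm of 1 barcode. The 237 genes between untreated lines became 28 with RLE scaling or the default filter, 42 with library size alone, 113 with DESeq2, 374 without a filter, 82 at an adjusted p below 0.05, 441 with every copy of shared barcodes, 10 with the stricter gate, 73 without other-lineage members and 20 to 346 without 1 library. Against the Foxp3 gate 439 genes were called after thinning and 801 to 933 without 1 library, and against the CD8 gate 831 and 1149 to 1575. The 2 genes with different responses in the CD4 and CD8 gates became 1 with the default filter, 12 after thinning, and 1 to 91 without 1 library (91 without irradiated MC38 replicate 3). The MC38 fit of that difference could not be made. The cause of these shifts was not tested.

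The MC38 share of kept barcodes rose by 0.0979 percentage points with every copy of shared barcodes, 0.430 after thinning and 0.945 with a replicate block (adjusted exact permutation p = 0.25, where 4 pairs allow no p below 0.125), and by 0.712 to 1.12 without 1 library. The share in untreated MC38 against Panc02-SIY was -1.75, -0.569 and -1.38 in these 3 settings and -1.63 to -1.10 without 1 library. Both differences passed the limit of 0.1 as reported, with the stricter gate and without the filter on genes and mitochondrial UMIs (adjusted exact permutation p = 0.0571 in both), and none of the values above did. With every copy of shared barcodes the untreated lines still did not overlap. Without 1 library the exact permutation p was 0.0571 throughout, the smallest that 3 against 4 libraries allow, and the groups did not overlap, so the adjusted 0.114 to 0.171 says nothing of stability. Of CD3 barcodes, the MC38 difference reached 18.7 points with the stricter gate (adjusted exact permutation p = 0.0571) and ran from 3.03 to 11.1 without 1 library. It was only 0.475 points with every copy of shared barcodes and 0.216 points after thinning, where the groups overlapped. The difference between untreated lines reached 6.26 points without the filter on genes and mitochondrial UMIs (adjusted exact permutation p = 0.0571), was -0.914 with the stricter gate, the reverse direction, and ran from 4.13 to 9.26 without 1 library. In Panc02-SIY tumors the differences ran from 0.591 to 2.03 points of kept and from 2.06 to 6.65 points of CD3 barcodes without 1 library, and were 0.125 and 1.57 points after thinning. The depth of 120318 to 471107 member UMIs per library limits what small changes the Panc02-SIY comparison can show.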
